A study of Mus musculus with 24 samples.

Results

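The protocadherins are the genes whose symbol starts with Pcdh, and 69 of the 70 such symbols among 24972 listed genes had a mean of at least 5 normalized counts over the 12 libraries of each sex. Of these 69 members, 57 belong to the clustered family: 14 Pcdha genes, 21 Pcdhb genes and 22 Pcdhg genes. The other 12 are non-clustered: 4 of the delta-1 type (Pcdh1, Pcdh7, Pcdh9 and Pcdh11x), 5 of the delta-2 type (Pcdh8, Pcdh10, Pcdh17, Pcdh18 and Pcdh19) and Pcdh12, Pcdh15 and Pcdh20. A normalized count is a gene's estimated read number in a library after the library was scaled to the others of its sex. Pcdhb1 lay outside the level set for members, with a mean of 0.496 normalized counts in males and 0.489 in females. The members nearest to that level were Pcdhb6, with means of 15.8 in males and 18.2 in females, Pcdh12, with 19.3 and 18.7, and Pcdha8, with 19.6 and 23.02.

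RNA was sequenced from the medial prefrontal cortex of wild type B6D2F1/J hybrid mice on postnatal day 21. C57BL/6J dams bred to DBA/2J males were injected under the skin each day with morphine sulfate (MO) or with saline (SAL). Injections ran from 1 week before breeding until the offspring were weaned at day 21. Morphine doses were raised over the first days to 10 mg/kg and then held there. Only the dams were injected, and 6 libraries were made in each of the 4 groups (male MO, male SAL, female MO and female SAL). Each litter gave at most 1 offspring per sex, small litters of a treatment were combined, and which male and female libraries came from littermates was not given in the sources used here, so the unit behind each value is an offspring while the treatment was given to its dam. The question for each sex was which protocadherin transcripts differed between MO and SAL offspring.

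Protocadherins are cadherin-type adhesion proteins of the cell surface, and most are made in neurons. Each neuron makes its own combination of clustered protocadherins by choosing among many alternative first exons, each with its own promoter, and matching combinations on touching membranes let a neuron recognise its own branches. In the Pcdha and Pcdhg clusters each variable exon is spliced to constant exons that encode a shared tail, whereas Pcdhb genes have no such constant exons. The C-type genes at the ends of the Pcdha and Pcdhg clusters are used broadly rather than chosen at random by each cell. Non-clustered delta protocadherins each have a promoter of their own, mark particular neuron populations and act in axon growth and synapse formation.

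In the GRCm38.p6 annotation, the same assembly as the mm10 build of the files, all 57 clustered members lie on chromosome 18. The Pcdha genes span positions 36930285 to 37188897, the Pcdhb genes 37294840 to 37521419 and the Pcdhg genes 37661775 to 37841873. Pcdh1 and Pcdh12 also lie on chromosome 18, so that this chromosome holds 59 of the members. The other 10 are spread over chromosome 14 (Pcdh8, Pcdh9, Pcdh17 and Pcdh20), chromosome 3 (Pcdh10 and Pcdh18), chromosome 5 (Pcdh7), chromosome 10 (Pcdh15) and the X chromosome (Pcdh11x and Pcdh19).

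Summed over all genes, normalized counts came to 14700000 to 16000000 per library. The smallest recurring values placed 1 read at 0.782 to 1.18 normalized counts, an estimate that corresponds to 13400000 to 20100000 reads per library. The columns of 11 libraries (4 female MO, 4 female SAL, 2 male MO and 1 male SAL) were marked "combined", with no explanation given in the sources used here. Slc17a7, which loads glutamate into synaptic vesicles of cortical excitatory neurons, ranged from 24987 to 38176 normalized counts over the 24 libraries, and Snap25, a neuronal vesicle fusion protein, from 28666 to 39807. The Y-linked gene Ddx3y did not fall below 850 in the males and did not exceed 1.11 in the females, so the sex labels held.

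Because non-clustered delta genes are read from their own promoters, the 250 bases upstream of the start of 2 delta-2 genes are shown, from RefSeq on GRCm38.p6. Both run 5′ to 3′ on the strand of the gene, with each CG pair, the site that DNA methylation can mark, in capitals. The Pcdh8 window is chr14:79771313-79771562 on the minus strand and the Pcdh10 window is chr3:45378148-45378397 on the plus strand.
Pcdh8: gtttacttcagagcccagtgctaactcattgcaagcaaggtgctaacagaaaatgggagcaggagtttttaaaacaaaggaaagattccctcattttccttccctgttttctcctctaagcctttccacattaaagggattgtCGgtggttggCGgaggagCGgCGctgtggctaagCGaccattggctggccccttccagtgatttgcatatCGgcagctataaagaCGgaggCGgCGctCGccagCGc
Pcdh10: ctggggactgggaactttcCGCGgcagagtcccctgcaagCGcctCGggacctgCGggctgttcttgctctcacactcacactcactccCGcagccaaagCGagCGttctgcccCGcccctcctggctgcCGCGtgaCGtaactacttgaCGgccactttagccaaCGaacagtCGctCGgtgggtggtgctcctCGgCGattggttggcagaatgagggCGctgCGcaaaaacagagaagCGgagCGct
The Pcdh10 window holds 22 CG pairs and the Pcdh8 window 11, against a median of 6 over 27025 windows of the same length, of which 91.7% hold at least 1. At least as many as Pcdh10 were held by 14.6% of all windows, and at least as many as Pcdh8 by 36% of them. Among the other members with a window, the counts were 23 for Pcdh18, 21 for Pcdh17, 18 for Pcdh9, 16 for Pcdh19, 7 for Pcdh7, 6 for Pcdh15 and 3 for Pcdh20. The first listed window of each gene was used, which is not always upstream of the whole gene. Those of Pcdh7, Pcdh9 and Pcdh15 lie inside the annotated gene, and those of Pcdh18 and Pcdh19 partly so. The Pcdh15 window starts at 73821617, whereas the gene starts at 73096277. For Pcdh19 and Pcdh20 the bases just after the window were not found in a transcript of the gene.

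Levels of different protocadherins were compared per kilobase of transcript in SAL libraries. The length used was the mean over the transcripts of a gene that are linked to RefSeq. These numbered 4 for Pcdh10 and Pcdh7, 3 for Pcdh9 and Pcdh11x and 1 for Pcdhgc5. The place of a gene with more than 1 such transcript therefore depends on this mean. Pcdh10, a delta-2 protocadherin, and Pcdhgc5, a C-type gene of the Pcdhg cluster, were the highest. In males the level of Pcdh10 was 875 ± 53.7 normalized counts per kb and that of Pcdhgc5 814 ± 36.1 (SD, n = 6 each), and in females 767 ± 99.1 and 738 ± 61.3. The ranges of this pair overlapped in both sexes. Below them came Pcdh7, a delta-1 protocadherin, at 577 ± 41.2 in males and 533 ± 77.1 in females. Its range did not overlap that of Pcdhgc5 in either sex. Pcdh9 was at 456 ± 33.2 in males and 426 ± 40.6 in females, and Pcdhgc3 at 395 ± 31.5 and 395 ± 38.5, with overlapping ranges. Pcdhac2, a C-type gene of the Pcdha cluster, followed at 296 ± 10.1 in males and 268 ± 29.8 in females, with ranges that overlapped that of Pcdh1, at 270.4 ± 47.7 and 245 ± 33.8. Pcdh17 stood at 234 ± 16.6 in males and 204 ± 20.5 in females, Pcdh8 at 205 ± 15 and 190.2 ± 38.8, and Pcdh19, whose human counterpart is mutated in an epilepsy of girls, at 147 ± 17.8 and 125 ± 27.3. The first 11 members in the order, down to Pcdha12 at 109 ± 10.1 in males and 105 ± 13.6 in females, were the same in the 2 sexes.

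C-type genes did not all stand high. Pcdhgc4 was at 92.7 ± 8.12 normalized counts per kb in male SAL libraries and 78.5 ± 5.40 in female, and Pcdhac1 at 32.5 per kb in males. The 11 alternate Pcdha genes with a transcript length had a median of 47.2 per kb in males, from 4.24 for Pcdha8 to 109 for Pcdha12. With these transcript lengths the Pcdhb genes had the lowest median of the subgroups, at 17.4 per kb. They ranged from 4.35 for Pcdhb6 to 64.2 for Pcdhb9. For some Pcdhb genes the length used exceeds the RefSeq span of the gene. It is 8695 bases for Pcdhb14, at 37447657 to 37451094. For Pcdhb22, the gene at the male median, it is 6609 bases, at 37518353 to 37521419. Such values per kb may be too low, so the median and order of the Pcdhb genes are uncertain. Medians were 57.4 per kb for the 12 Pcdhga genes and 31.5 for the 7 Pcdhgb genes. Pcdhga levels ran from 29.8 to 74.6 per kb and Pcdhgb levels from 21.3 to 49.8. Pcdh20 at 68.4, Pcdh18 at 31.1, Pcdh15, a part of the hair cell tip link, at 24.2 and Pcdh12, known from endothelium, at 3.91 per kb were the lower non-clustered members in males.

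**Figure D1:**
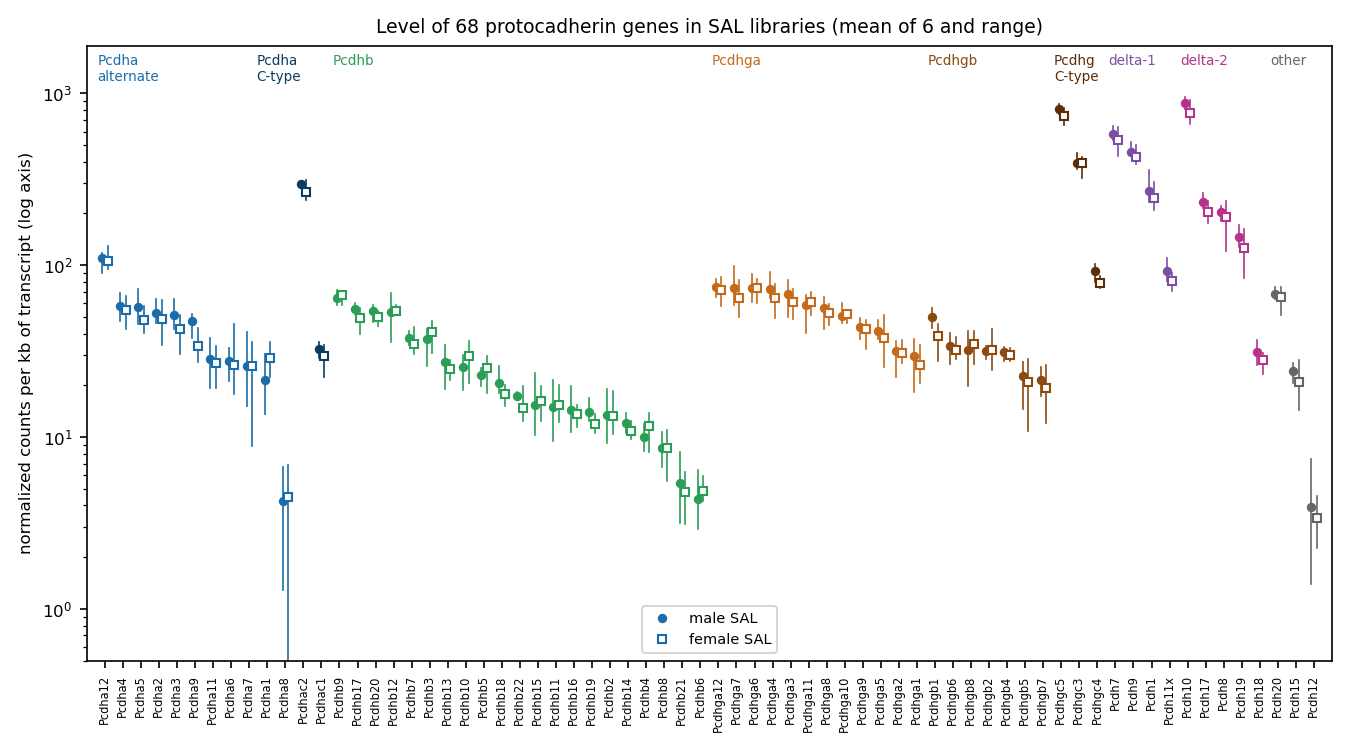
Normalized counts per kb of transcript on a log axis for 68 members, grouped by subgroup; points are means of 6 SAL libraries and lines their range. Pcdh10 and Pcdhgc5 are the highest at 875 and 814 in males; the female line of Pcdha8 runs to a library at 0, off the axis, and Pcdha10 has no transcript length here.

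Clustered genes held 48.6% of all normalized counts of the members in male SAL libraries, with a range of 46.9% to 50.1%, and 49.8% in female SAL libraries. The 5 C-type genes alone gave 47.3% ± 0.485 (SD, n = 6) of the clustered counts in male SAL libraries and 46.8% in female ones. Male MO libraries stood at 48.8% and 47.5% for these shares, so that in males neither moved by as much as the range of the SAL libraries. Female MO libraries stood at 49.9% and 47.8%. Among them the library PFC1 had 55.2% and 53.0%, above the highest female SAL values of 51.6% and 48.1%. Without PFC1 the female MO ranges were 48.3% to 49.7% and 46.0% to 47.7%.

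How far a member varied between libraries of a group differed among the clusters. The spread of each member was set against the spread that limma, a linear model across all genes, fitted for genes of the same level, so that 1 is the usual spread. The median ratio was 1.79 for alternate Pcdha genes in males and 2.23 in females, 1.56 and 1.37 for Pcdhga, 1.44 and 1.39 for Pcdhgb, and 1.10 and 1.03 for Pcdhb, against 1.00 and 1.03 over all genes. Without the female MO library PFC1, described next, the alternate Pcdha value in females was 1.54. Members also differ in how much sequence they share, which matters to the assignment of reads of 85 bases. Of all stretches of 85 bases in a gene's transcripts, alternate Pcdha genes shared 32.5% to 88.9% with another gene, with a median of 56.9%, Pcdhga genes 31.0% to 63.3%, Pcdhgb genes 32.4% to 57.9%, and the C-type genes 35.4% to 52.1%. The 88.9% belongs to Pcdha4, which shares 52.1% with another protocadherin. The 35.4% belongs to Pcdhgc5, which shares 26.2% with another protocadherin. Stretches shared among protocadherins were split between them by an estimate, so values of single Pcdha and Pcdhg genes are uncertain in that part. For Pcdhb genes the share was 0% to 8.33%, and for all 12 non-clustered genes it was 0%. Delta-2 genes share none and still had ratios of 1.34 in males and 2.93 in females, or 1.46 in females without PFC1. The part of shared sequence in the spread was not tested.

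**Figure D2:**
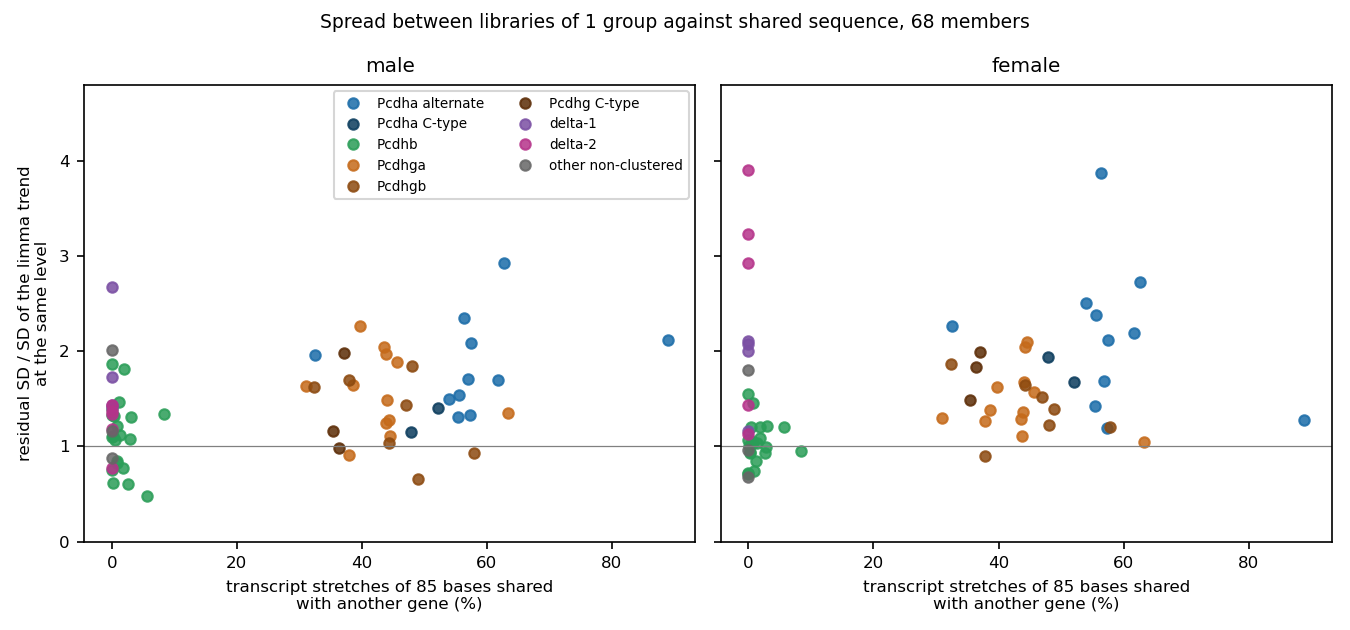
Ratio of a member's spread between libraries of a group to the limma trend at its level (y axis; 1 is the usual spread) against the percent of its 85-base transcript stretches shared with another gene (x axis), for 68 members in each sex. Pcdhb points lie at 0% to 8.33% shared with a median ratio of 1.10 in males; alternate Pcdha points lie at 32.5% to 88.9% with a median of 1.79.

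The female MO library PFC1 stood apart in the members. It was the lowest of the 12 female libraries for 44 of the 69 members, whereas 27.2% of all genes tested were lowest there. PFC1 was the highest for 1 member, whereas 26.8% of all genes tested were highest there. This member was Pcdhgc3, at 3242 normalized counts, against 1504 to 2406 in the other 11. The summed counts of all members were 22892 in PFC1 and 29723 to 35540 in the other 11 libraries. Delta-2 genes stood at 5594 against 8229 to 11306, alternate Pcdha genes at 1499.9 against 2359 to 2722, C-type Pcdha genes at 967 against 1431 to 2032, and Pcdhb genes at 1346 against 1771 to 2180. The C-type Pcdhg genes did not share this, with 5731 in PFC1 and 5444 to 6148 elsewhere. Within that sum Pcdhgc3 made up 56.6% in PFC1 and 25.8% to 40.6% in the other female libraries, while Pcdhgc5 was at 2235, its lowest value.

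The markers of other cells also differed in PFC1. Its sum over 6 oligodendrocyte genes was 295945 normalized counts against 30153 to 167984 in the other 11 female libraries, over 7 astrocyte genes 132934 against 65731 to 111829, over 7 microglia genes 10121 against 3864 to 7501, over 6 endothelium and pericyte genes 8410 against 5079 to 6874, and over 6 striatal neuron genes 6197 against 1961 to 2949. The sum over 7 blood and neutrophil genes was 8890 against 1657 to 7670, with Ltf and Ngp at 0 in at least 1 female library, and over 4 oligodendrocyte precursor genes 4342 against 2617 to 4324. Sums over 7 neuron genes (143409 against 142286 to 166110), 6 meninges and fibroblast genes (2084 against 629 to 2094) and 4 choroid plexus genes (54.1 against 26.4 to 79.8, with Folr1 at 0 in at least 1) lay inside the range of the others. Apart from a term for the oligodendrocyte list among the alternatives, their part in the member values was not tested. In bulk tissue fewer cells of a type cannot be told apart from less RNA per cell. Female results are therefore given with and without PFC1. In males, PFC19 (MO) was lowest for 26 members, against 13.3% of all genes lowest there, and PFC16 (SAL) was highest for 17, against 14.6% of all genes highest there.

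**Figure D3:**
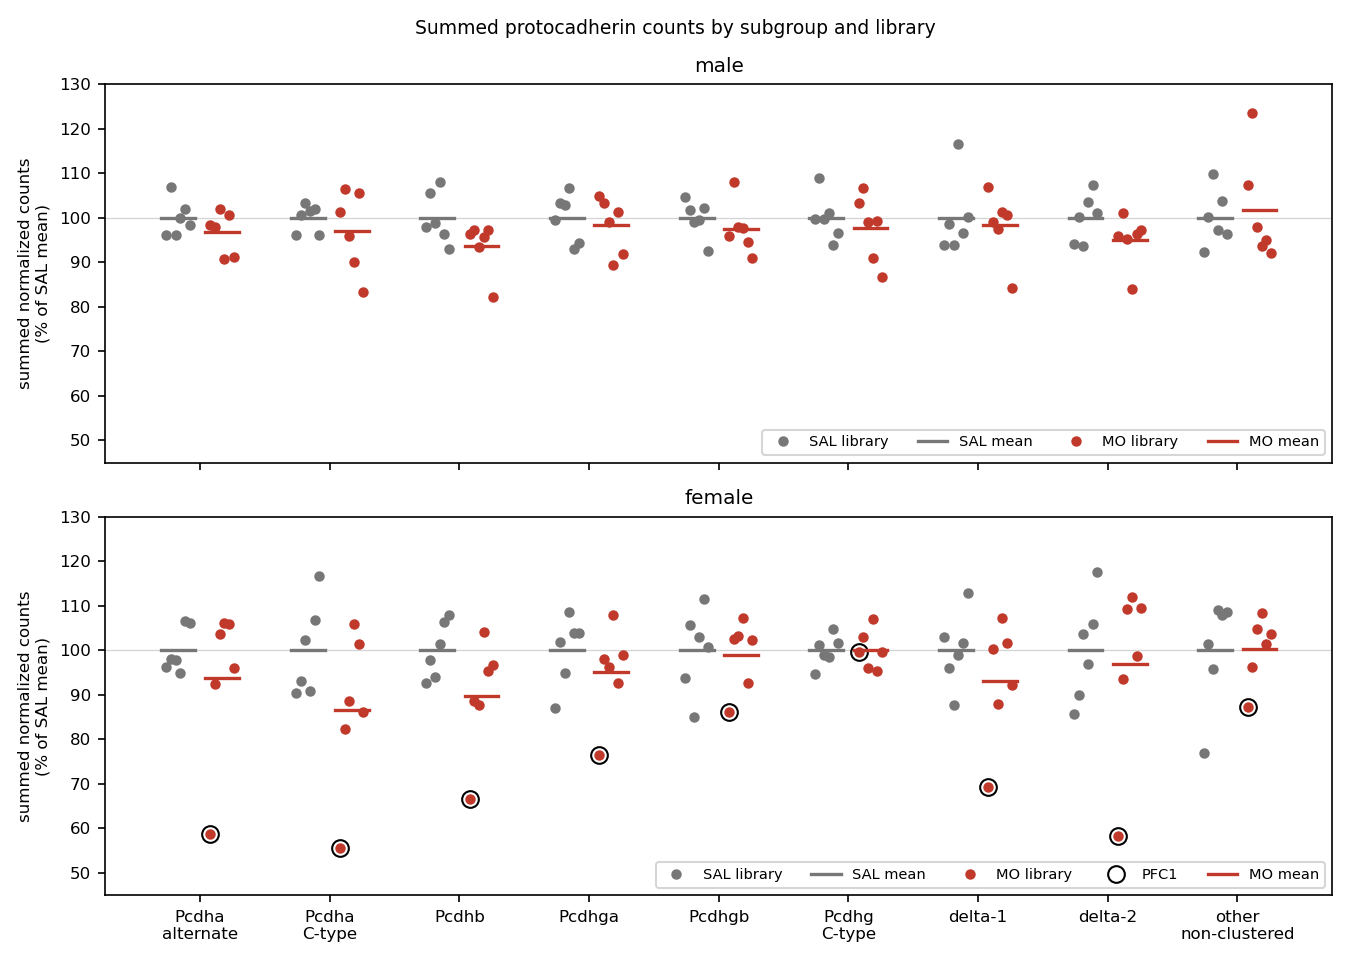
Summed normalized counts of each subgroup in every library, as a percent of the SAL mean of that sex; points are libraries, lines are group means, and the ringed point is PFC1. PFC1 lies at 58.2% for delta-2 genes and 99.7% for C-type Pcdhg genes; in males the lowest MO points, at 82.2% for Pcdhb and 83.3% for C-type Pcdha, belong to PFC19.

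In males no protocadherin passed an adjusted p of 0.05 by limma with Benjamini-Hochberg adjustment over 16662 genes (smallest adjusted p of a member 0.9997), and neither did any other gene, a background of 0%. At an unadjusted p below 0.05, 2 members were lower in MO (1.52% of all genes tested) and 0 were higher (1.33% of all genes). Both were Pcdhg genes. Neither passed after scaling to Gapdh and Ppia or without PFC19, and without the MO library PFC11 the count of lower members was 5 (2.24% of all genes in that fit).

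Pcdhgc4, the C-type gene known to be needed for survival of cortical interneurons, had a lowest, median and highest value of 402, 469 and 514 normalized counts in male SAL and of 372, 417 and 457 in male MO libraries. The groups overlapped, and all 6 MO libraries lay below the SAL mean. Its log2 fold change, MO minus SAL, was −0.16 (SE 0.07, 95% interval −0.30 to −0.02, limma p = 0.0241 unadjusted, exact permutation p = 0.0346). Pcdhgb1, a member of the b-type Pcdhg genes, had 203, 237 and 266 normalized counts in male SAL and 190.4, 208 and 217 in male MO. Here too the groups overlapped with 6 of 6 MO libraries below the SAL mean, and the log2 fold change was −0.18 (SE 0.08, 95% interval −0.35 to −0.02, limma p = 0.0336 unadjusted, exact permutation p = 0.0498). Neither gene was low in female MO libraries: their female log2 fold changes were 0.0050 and 0.05 (exact permutation p = 0.983 and 0.684). The C-type partners of Pcdhgc4 had male log2 fold changes of 0.02 for Pcdhgc3 and −0.05 for Pcdhgc5, both short of the test.

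Among male subgroups, 17 of 21 Pcdhb genes had a log2 fold change below 0 (median −0.11), against 50.2% of all genes tested with a median of −0.00. With each male library left out in turn the Pcdhb count ran from 13 of 21, without PFC19, to 17 of 21, and the median was −0.05 at its smallest in size, without PFC16. No Pcdhb gene had an unadjusted p below 0.05 in males. The largest in size was Pcdhb2 at −0.55, with 26.0, 35.5 and 53.9 normalized counts in SAL and 8.24, 29.5 and 37.3 in MO, where the lowest was PFC19 (limma p = 0.0647, exact permutation p = 0.0866). Without PFC19 the log2 fold change of Pcdhb2 was −0.26. The summed Pcdhb counts were 2091 ± 120.2 in male SAL and 1959 ± 121 in male MO (SD, n = 6 each), a difference of about the spread within a group. The 2 most abundant Pcdhb genes, Pcdhb17 and Pcdhb9, had log2 fold changes of −0.13 and −0.12. Over all members 49 of 69 lay below 0 (median −0.06), or 41 of 69 without PFC19 (median −0.03), or 54 of 69 with libraries scaled to Gapdh and Ppia, a scaling that put 62.4% of all genes below 0. The other clustered subgroups were 8 of 12 alternate Pcdha genes below 0 (median −0.06), 8 of 12 Pcdhga genes (−0.03), 4 of 7 Pcdhgb genes (−0.01), 2 of 3 C-type Pcdhg genes and 1 of 2 C-type Pcdha genes. Leaving out a library moved the Pcdhga median between −0.06 and 0.02 and the Pcdhgb median between −0.04 and 0.02.

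In male MO libraries 5 of 6 meninges and fibroblast markers were lower at p below 0.05, against 1.52% of all genes. The median log2 fold change of the list was −0.48, and their sum ranged over 1089 to 2130 in SAL and 702 to 1305 in MO. The oligodendrocyte sum ranged over 44660 to 77159 in SAL and 37988 to 134475 in MO. Higher at p below 0.05 were 1 of 7 blood and neutrophil markers and 1 of 4 choroid plexus markers, against 1.33% of all genes. The part of these cell type markers was not separated. Apart from the oligodendrocyte term among the alternatives, their part in the male member values was not tested.

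The non-clustered genes gave small male differences. All 5 delta-2 genes were below 0, from −0.09 for Pcdh10 to −0.01 for Pcdh18, none past the test. Pcdh10, which steers axons of the striatal and thalamic tracts, had 5486, 6002 and 6453 normalized counts in SAL and 4716, 5699 and 6002 in MO (exact permutation p = 0.195). The groups overlapped between 5486 and 6002, and the lowest MO value lay below every SAL value. Pcdh17, a delta-2 gene of corticobasal ganglia synapses, had 2454, 2656 and 3009 in SAL and 2394, 2534 and 2814 in MO. Pcdh8 (−0.08) and Pcdh19 (−0.04) had overlapping groups too. Of the delta-1 genes, Pcdh11x had the largest difference at −0.14, with 469, 531 and 642 normalized counts in SAL and 384, 483 and 577 in MO (exact permutation p = 0.214), while Pcdh1 was at −0.09, Pcdh7 at −0.01 and Pcdh9 at 0.01. Pcdh12 stood at −0.25 with few counts behind it, 7.78, 21.2 and 41.1 in SAL and 7.12, 16.6 and 27.1 in MO. Pcdh15 and Pcdh20 differed by 0.06 and 0.02.

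**Figure D4:**
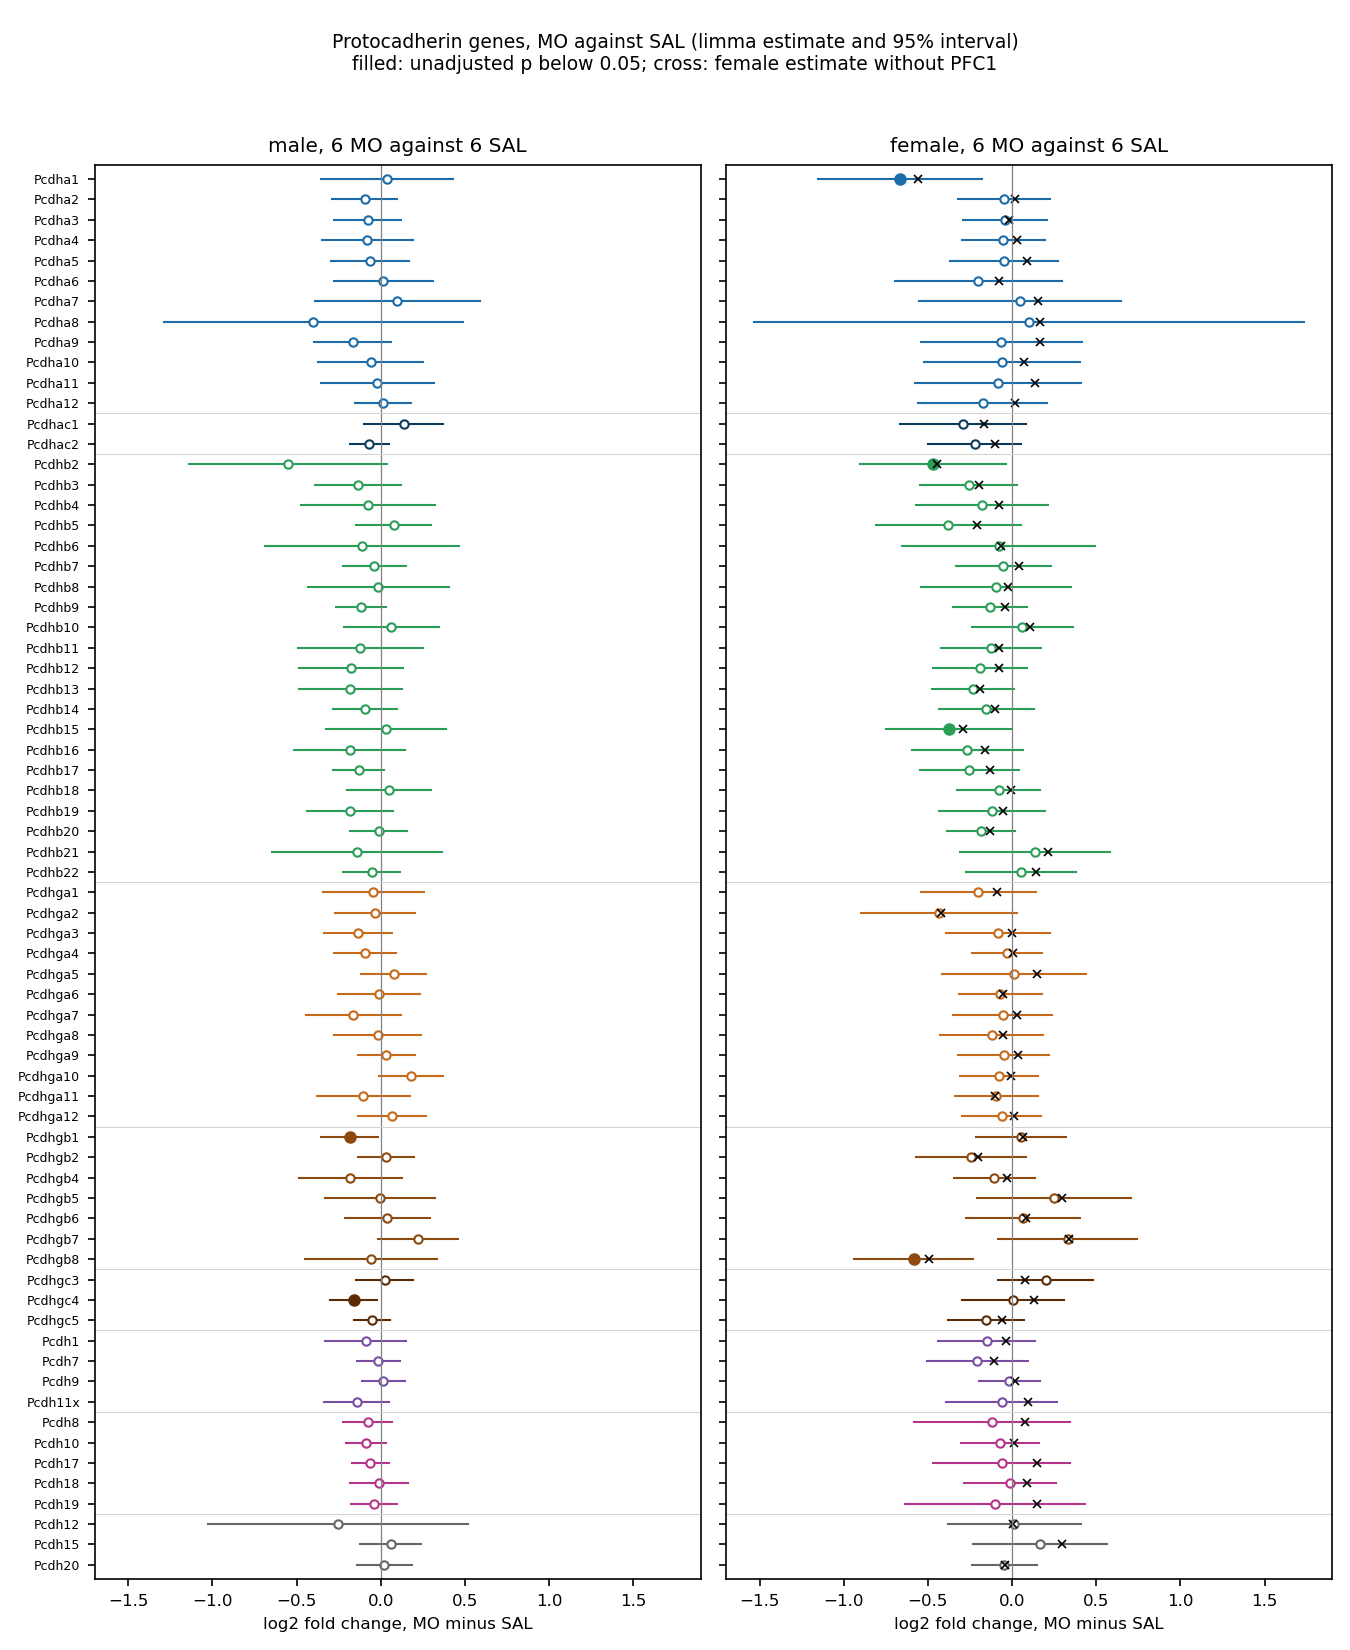
Log2 fold change, MO minus SAL, of each of the 69 members in males and females, with 95% intervals from limma; filled points have an unadjusted p below 0.05 and crosses are female estimates without PFC1. The filled points are Pcdhgb1 and Pcdhgc4 in males and Pcdha1, Pcdhb2, Pcdhb15 and Pcdhgb8 in females, all below 0.

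In females too, no member passed an adjusted p of 0.05 over 16717 genes (smallest 0.918, background 0%). At an unadjusted p below 0.05, 4 members were lower in MO (1.12% of all genes) and 0 were higher (1.81%). Without PFC1 they were 2 lower (1.01%) and 0 higher (1.25%). None of the 4 had passed in males. The count of lower members was 9 without the MO library PFC8, a fit in which 2.16% of all genes were lower. Beside these values, 3 of 6 endothelium and pericyte markers and 3 of 7 blood and neutrophil markers were higher in female MO at p below 0.05, or 1 of 6 and 3 of 7 without PFC1; their part in the member values was not tested.

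Pcdhgb8, which RefSeq lists as a transcribed pseudogene, had 74.0, 96.4 and 116 normalized counts in female SAL and 46.0, 61.8 and 95.7 in female MO. All 6 MO libraries were below the SAL mean, with overlap in the upper MO values. The log2 fold change was −0.59 (SE 0.17, 95% interval −0.94 to −0.23, limma p = 0.0030 unadjusted, exact permutation p = 0.0173), and −0.49 without PFC1 (limma p = 0.0059, exact permutation p = 0.0260). Pcdha1, the first variable exon of the Pcdha cluster, had 117, 157 and 187 normalized counts in SAL and 63.2, 84.99 and 172 in MO. The MO libraries were spread widely: 5 of 6 lay below the SAL mean, and the groups overlapped. Its log2 fold change was −0.67 (SE 0.23, 95% interval −1.16 to −0.18, limma p = 0.0104 unadjusted, exact permutation p = 0.0390), and −0.56 without PFC1 (limma p = 0.0218, exact permutation p = 0.0714). Pcdha1 shares 57.5% of its stretches of 85 bases with another gene.

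The other 2 were Pcdhb genes of low level whose call was lost without PFC1. Pcdhb2 had 29.4, 36.5 and 51.9 normalized counts in female SAL and 19.8, 24.02 and 43.2 in female MO, with overlapping groups and a log2 fold change of −0.47 (SE 0.20, 95% interval −0.90 to −0.04, limma p = 0.0352 unadjusted, exact permutation p = 0.0519). Pcdhb15 had 34.6, 48.2 and 55.7 in SAL and 25.1, 32.6 and 44.8 in MO, again overlapping, with −0.38 (SE 0.17, 95% interval −0.75 to −0.0056, limma p = 0.0470 unadjusted, exact permutation p = 0.0541). Without PFC1 the values were −0.44 (limma p = 0.0538, exact permutation p = 0.0887) and −0.29 (limma p = 0.103, exact permutation p = 0.115), short of the threshold. In males Pcdhb15 differed by 0.03.

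**Figure D5:**
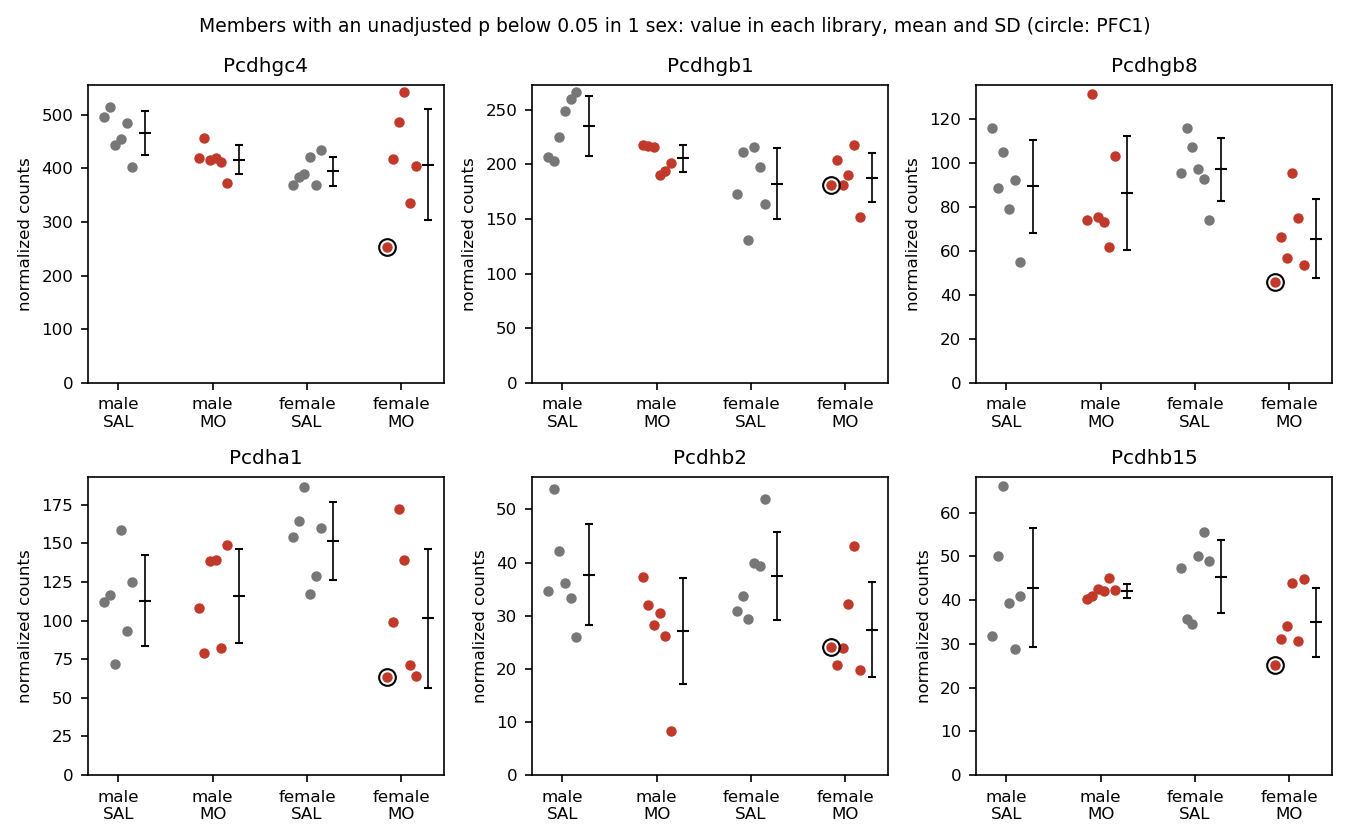
Normalized counts in each of the 24 libraries for the 6 members with an unadjusted p below 0.05 in 1 sex, with group mean and SD; the ringed point is PFC1. The groups overlap in every panel; female Pcdhgb8 runs from 74.0 to 116 in SAL and from 46.0 to 95.7 in MO.

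How many female differences lay below 0 depended on PFC1. Below 0 were 55 of 69 members (median −0.08), against 49.5% of all genes, and 35 of 69 (median −0.01) without it, against 48% of all genes. Scaling to Gapdh and Ppia left 32 of 69 below 0, with 24.4% of all genes below 0. Alternate Pcdha genes went from 10 of 12 below 0 (median −0.06) to 3 of 12 (0.05) without PFC1, and delta-2 genes from 5 of 5 (−0.07) to 0 of 5 (0.09), a count that was 2 of 5 with Gapdh and Ppia scaling. Pcdhga genes went from 11 of 12 (−0.07) to 6 of 12 (−0.00) and delta-1 genes from 4 of 4 (−0.11) to 2 of 4 (−0.01). Pcdhb genes stayed mostly below 0, 18 of 21 (−0.15) with PFC1, 17 of 21 (−0.08) without it and 15 of 21 after Gapdh and Ppia scaling. Pcdhgb genes were 3 of 7 below 0 both with and without PFC1, and C-type Pcdhg genes 1 of 3. Of 7 neuron markers, 1 lay above 0 in females (median −0.10), and 0 did (−0.06) without PFC1. In males 2 of the 7 neuron markers lay above 0 (median −0.0018). The part of the neuron markers in the member values was not tested.

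Values of the delta-2 genes are given with and without PFC1. Pcdh17 had 2021, 2331 and 2699.9 normalized counts in female SAL and 1069, 2517 and 2906 in MO, where 1069 is PFC1, and its log2 fold change was −0.06 with PFC1 and 0.15 without (exact permutation p = 0.924 and 0.152). Pcdh19 had 789, 1193 and 1513 in SAL and 445, 1284 and 1487 in MO, again with PFC1 lowest, for −0.10 with and 0.15 without. Pcdh10 had 4518, 5151 and 6232 in SAL and 3647, 5047 and 5796 in MO, for −0.07 and 0.01. In each of them the MO median stood within the SAL range. Pcdh8 went from −0.12 to 0.08 and Pcdh18 from −0.01 to 0.09.

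Among the other members of high level, Pcdhgc5 had 3084, 3449 and 3898 normalized counts in female SAL and 2235, 3265 and 3753 in MO, a log2 fold change of −0.16, or −0.06 without PFC1. Pcdhgc3 had 1504, 1918 and 1991 in SAL and 1713, 1930 and 3242 in MO, a value of 0.20, or 0.08 without PFC1. These C-type neighbours thus had opposite signs, neither past the test. Pcdhac2 was at −0.22 and Pcdhac1 at −0.29, or −0.10 and −0.17 without PFC1, none past the test. Pcdha12 was at −0.18 and Pcdha4 at −0.05, or 0.02 and 0.03 without PFC1. Pcdhga12 and Pcdhga6, the most abundant of their subgroup, were at −0.06 and −0.07, and Pcdhgb6 at 0.07. Of the delta-1 genes, Pcdh7 had 2063, 2404 and 3050 in SAL and 1522, 2215 and 2912 in MO (−0.21, or −0.11 without PFC1), Pcdh1 was at −0.15 (−0.04), Pcdh11x at −0.06 (0.09) and Pcdh9 at −0.02 (0.02). Pcdh15 was at 0.16 (0.29), Pcdh20 at −0.05 (−0.04) and Pcdh12 at 0.01 (0.0070).

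The Pcdhb sum was 2019 ± 128 normalized counts in female SAL and 1814 ± 259 in female MO, or 1908 ± 135 without PFC1. As a share of the counts of all members, Pcdhb genes took 6.07% to 6.43% in female SAL (6.27% ± 0.145, SD, n = 6) and 5.59% to 6.07% in female MO (5.90% ± 0.192), with PFC1 at 5.88% inside the MO range. The lowest SAL value, 6.065%, lay below the highest MO value, 6.071%, so the 2 ranges overlapped. This is 1 of several shares computed, and no test was run on them. In males the share was 5.62% to 6.11% in SAL (5.94% ± 0.212) and 5.42% to 6.23% in MO, where the MO range covered the SAL range.

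No member had groups that did not overlap in either sex (0.018% of all genes lower and 0.042% higher in males; 0.0718% and 0.0598% in females). None had both an unadjusted p below 0.05 and a log2 fold change past 1.2 in size, the fold the study used (0.132% of all genes in males and 0.126% in females).

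With the sexes in the same limma model, each contributing its own baseline, 7 members had an unadjusted p below 0.05 for the shared MO effect (4.73% of 16502 genes) and none an adjusted p below 0.05 (smallest 0.839, background 0%). Of the 7, 6 were lower (2.25%) and 1 higher (2.48%). The lower ones were 5 Pcdhb genes, namely Pcdhb2 at −0.51 (SE 0.18), Pcdhb17 at −0.19 (SE 0.08), Pcdhb13 at −0.21 (SE 0.09), Pcdhb9 at −0.12 (SE 0.06) and Pcdhb3 at −0.20 (SE 0.09), together with Pcdhgb8 at −0.32 (SE 0.14). Pcdhgb7 was the higher one at 0.27 (SE 0.11, 95% interval 0.04 to 0.51), with male means of 100.6 in SAL and 117 in MO and female means of 91.3 and 114. Over all Pcdhb genes 20 of 21 were below 0 (median −0.12), against 49.8% of all genes, and 16 of 21 with library weights and 17 of 21 after Gapdh and Ppia scaling or with the oligodendrocyte sum as a term. Without PFC1 the count was 2 lower (1.75%), Pcdhb2 at −0.50 and Pcdhb17 at −0.13, and 1 higher (1.67%), Pcdhgb7 at 0.28, with 17 of 21 Pcdhb genes below 0 against 48.3% of all genes. The 2 tables had been normalized separately and littermates may stand in both sexes, so these p values cover the spread between libraries only. Pcdhb genes also moved together between libraries. After group means were removed, the median correlation between 2 Pcdhb genes was 0.14 in males. In females it was 0.37, or 0.17 without PFC1. The counts of genes below 0, here and within each sex, are therefore not counts of independent values.

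Whether MO differed between the sexes was tested as the interaction in that model. Pcdha1 alone had an unadjusted p below 0.05 (2.01% of all genes), its female minus male difference of log2 fold changes being −0.71 (SE 0.32, 95% interval −1.36 to −0.05). Its male values were 71.8, 114 and 159 normalized counts in SAL and 79.2, 123 and 149 in MO, for a male log2 fold change of 0.04. The share of members, 1 of 69, is no higher than that background. Over 33 alternatives the Pcdha1 difference lay between −0.88 and −0.56 and passed in 21. Without PFC1 it was −0.59 and did not pass, and the members with an unadjusted p below 0.05 were Pcdhgc4, at 0.29, and Pcdh17, at 0.21, 2 of 69 against 1.81% of all genes. No interaction passed adjustment.

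Genes that act with protocadherins were read from 4 lists. The first list held 16 regulators of promoter choice in the clusters. Among them were CTCF and cohesin, which fold the chosen promoter to its enhancer, and the DNA methyltransferases. In male MO, 1 of the 16 was higher at an unadjusted p below 0.05 (1.33% of all genes) and 0 were lower (1.52%). It was Dnmt3b, which methylates unchosen promoters, at a mean of 2.89 normalized counts in SAL and 6.64 in MO (log2 fold change 0.82, SE 0.37), a level of only a few reads. In females 0 of 16 passed in either direction, and Stag2, a cohesin subunit, had the smallest p, at a log2 fold change of 0.12 (SE 0.07). The list medians were −0.01 in males and −0.02 in females.

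Of 9 genes of the WAVE complex, the actin regulator that delta protocadherins recruit through their tails, 0 passed in either sex. Cyfip2 had the smallest p, at −0.07 in males (SE 0.04) and −0.19 in females (SE 0.11). Of the 2 FAK family kinases, which bind clustered protocadherin tails, 0 passed, with Ptk2b at −0.05 in males and −0.14 in females. Of 13 classical cadherin and catenin genes, 1 was lower in each sex (1.52% of all genes in males and 1.12% in females). None was higher (1.33% and 1.81% of all genes). In males it was Cdh1, an epithelial cadherin, at 26.6 ± 10.7 normalized counts in SAL and 15.2 ± 10.9 in MO (log2 fold change −0.90, SE 0.33). In females it was Cdh10, a neuronal type II cadherin, at 1109.9 ± 133 in SAL and 939 ± 66.6 in MO (−0.24, SE 0.08), and −0.20 (SE 0.07) without PFC1, where it passed too. None of these list genes passed adjustment over all genes. Above 0 in males were 1 of 9 WAVE genes (median −0.03), 1 of 13 cadherin and catenin genes (−0.04), 0 of 2 kinases and 5 of 16 regulators. In females these counts were 4 of 9, 5 of 13, 0 of 2 and 7 of 16.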

How the data were processed

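RNA had been polyA-enriched, made into directional libraries and read as single 85-base reads. Per the study's methods, the authors aligned reads with STAR to mm10 (RNA-Seq Alignment 2.0.2), quantified RefSeq genes with Salmon and normalized with DESeq2 (RNA-Seq Differential Expression 1.0.1), 1 table per sex. The deposited values are these normalized counts, a scaled signal and not whole reads, so a test on raw counts was not applied. Genes with a summed value of at least 10 were kept (16662 in males, 16717 in females, 16502 in both). All 69 members were kept in both sexes. The values were moved to log2(value + 1) and tested with limma 3.58.1 in R 4.3.3 (empirical Bayes with a mean-variance trend), with Benjamini-Hochberg adjustment over all genes. Fold changes on this scale understate changes of low genes. Exact permutation tests, 2-sided, used 924 relabellings (462 without PFC1), with a smallest possible p of 0.00216. The scripts were tested on simulated data. Read depth was estimated from the smallest values.

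Transcript lengths and shared stretches of 85 bases came from GENCODE transcripts of GRCm38, matched for 68 of 69 members. The counts were for RefSeq genes, and for some Pcdhb genes the GENCODE length exceeds the RefSeq span. The members, lists and tests were chosen with earlier results of these data known. Named are members with an unadjusted p below 0.05 in a sex, the 2 most abundant of each subgroup, C-type and non-clustered members, those next to the mean of 5, and up to 2 genes per pathway list by smallest p; genes named for the model of both sexes and for its interaction were chosen after their values were seen. Alternatives changed the pseudocount (0.5 or 5), the filter (none, or a mean of at least 10), the scaling (Gapdh and Ppia, quantile), weights per library, a term for combined columns and each library left out in turn. A further pathway list is not reported here. Plots were drawn with matplotlib 3.10.9.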

Additional observations from a re-analysis of the deposited data

Results flagged for a closer look

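Among 116 sets of 6 libraries (29 named members in 4 groups), 13 held a library far from the other 5 by Dixon's gap test, where chance flags about 5% of sets. In female MO, 6 of these were PFC1 at the low end: Pcdha4 at 212.8 normalized counts (group median 295.7), Pcdha12 at 253.7 (554.8), Pcdhb9 at 137.3 (200.2), Pcdh10 at 3647 (5047), Pcdh17 at 1069 (2517) and Pcdh15 at 95.58 (159.7). In female SAL, PFC2 was low for Pcdh8 at 465 (743.8) and Pcdh18 at 119.7 (148.2), and PFC24 was low for Pcdhgc3 at 1504 (1918). In male SAL, PFC9 was low for Pcdha12 at 479.8 (596.9) and PFC16 was high for Pcdh9 at 2603 (2225). In male MO, PFC19 was low for Pcdhb2 at 8.243 (29.46) and PFC15 was low for Pcdh10 at 4715 (5699). PFC1 also stood apart in the oligodendrocyte and striatal marker sums, and PFC15 had the highest male oligodendrocyte sum (134475). A term for the oligodendrocyte list was fitted as an alternative. In the model of both sexes 59 of 69 members were below 0, against 49.8% of all genes. With that term 47 of 69 were, against 49% of all genes. Beyond this the part of these markers was not tested.

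The interaction term put Pcdha1 below an unadjusted p of 0.05, with a female minus male difference of log2 fold changes of -0.7052 by limma, not past adjustment. It was the only such member (1 of 69, against 2.01% of all genes), and it did not pass with library weights (-0.56), after Gapdh and Ppia scaling (-0.59) or without PFC1 (-0.59).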

How the results depend on the processing

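No member passed an adjusted p of 0.05 in either sex under any alternative. Counts of members at an unadjusted p below 0.05 moved as follows. In males the 0 higher members became 1 with the term for combined columns and 1 with a term for the summed oligodendrocyte list (chosen after seeing the data), and ranged from 0 to 2 with each library left out, 2 without PFC12. The 2 lower male members became 1 with library weights and 0 after scaling to Gapdh and Ppia, and ranged from 0 (without PFC19) to 5 (without PFC11, 2.24% of all genes lower). In females the 0 higher became 1 with the oligodendrocyte term and ranged from 0 to 1 (without PFC7 or PFC21). The 4 lower female members became 2 after Gapdh and Ppia scaling and 2 with the oligodendrocyte term, and ranged from 2 (without PFC1, PFC5, PFC22 or PFC24) to 9 (without PFC8, 2.16% of all genes). The cause was not tested. No named member reversed its sign among those that passed. Pcdha1 and Pcdhgb8 in females kept a limma p below 0.05 under all 21 alternatives (the exact permutation p of Pcdha1 was 0.0714 without PFC1), while Pcdhb15 lost it in 12, Pcdhb2 in 9, Pcdhgb1 in males in 9 and Pcdhgc4 in males in 4 (Gapdh and Ppia scaling, and without PFC9, PFC12 or PFC19). In the model of both sexes the lower members numbered 2 without PFC1, 2 after Gapdh and Ppia scaling and 12 without PFC8 (1.75%, 0.515% and 3.73% of all genes). No paired analysis was possible because MO and SAL offspring came from different dams. Which male and female libraries came from littermates was not given either. Depth limits members of few counts such as Pcdha8, Pcdhb6 and Pcdh12.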
